A study of Mus musculus with 9 samples.

Results

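The genes described here are 47 genes of the mammalian cell cycle, 14 of which serve DNA replication in S phase and 33 the G2 phase and mitosis. They were taken by name. For each, the probe set annotated to that gene alone with the highest mean over the 9 arrays was used, which gave 46 of the 47 genes among the 17097 genes so measured. Ccnb1, the gene of cyclin B1, was not analysed here because none of the probe sets used carried its symbol alone. The study followed an acute inflammation of the brain that resolves by itself, and RNA was measured on 9 Affymetrix arrays in 3 groups of 3. In the LPS 4 d group the brain was taken 4 d after an injection of lipopolysaccharide (LPS), a bacterial cell wall component, into the striatum, the resolution phase. In the LPS 1 d group it was taken 1 d after the same injection, the induction phase. In the PBS group it was taken 4 d after an injection of phosphate buffered saline. All mice were C57Bl/6J males aged 10 to 12 weeks, the tissue came from the injected hemisphere after perfusion with saline, and each array held equal RNA from 3 mice. Of 7 neuron markers 6 were analysed, and all lay above background in every group.

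A cell that divides copies its DNA in S phase and parts the copies in mitosis, and the genes needed for each step are switched on shortly before it. Replication genes are transcribed from late G1 under E2F factors, whereas mitosis genes peak in G2. The DREAM and MYB-MuvB complexes regulate mitosis genes and bind a short element called the CHR, often beside CCAAT boxes bound by NF-Y. Most cells of the adult brain are not dividing, but microglia, oligodendrocyte precursors and progenitors below the ventricle can divide.

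The promoters of 6 members are shown first, because the 2 classes differed in what they held around the start of the gene. They are the RefSeq windows of build GRCm38.p6, 250 bases before and 50 after the start, with matches on either strand in capitals. Searched were the CHR as TTTGAA, its variant TTTAAA, the NF-Y box as CCAAT, and E2F elements as TTTCCCGC and TTTGGCGC. The first 3 are mitosis genes with large differences at 4 d, Ube2c (chr2:164769679-164769978, plus strand), Cdk1 (chr10:69352863-69353162, minus strand) and Top2a (chr11:99024140-99024439, minus strand).
Ube2c: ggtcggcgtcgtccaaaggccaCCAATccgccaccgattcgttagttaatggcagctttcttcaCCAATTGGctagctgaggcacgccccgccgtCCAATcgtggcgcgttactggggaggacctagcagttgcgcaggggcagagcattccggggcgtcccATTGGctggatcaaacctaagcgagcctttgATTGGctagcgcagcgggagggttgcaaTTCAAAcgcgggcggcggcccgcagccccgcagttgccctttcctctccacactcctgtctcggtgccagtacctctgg
Cdk1: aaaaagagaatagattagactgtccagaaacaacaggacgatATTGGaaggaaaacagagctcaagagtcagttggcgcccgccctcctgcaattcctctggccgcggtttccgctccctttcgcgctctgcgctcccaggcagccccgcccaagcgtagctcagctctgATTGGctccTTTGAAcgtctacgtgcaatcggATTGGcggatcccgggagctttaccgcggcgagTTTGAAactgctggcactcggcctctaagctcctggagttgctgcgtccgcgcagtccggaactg
Top2a: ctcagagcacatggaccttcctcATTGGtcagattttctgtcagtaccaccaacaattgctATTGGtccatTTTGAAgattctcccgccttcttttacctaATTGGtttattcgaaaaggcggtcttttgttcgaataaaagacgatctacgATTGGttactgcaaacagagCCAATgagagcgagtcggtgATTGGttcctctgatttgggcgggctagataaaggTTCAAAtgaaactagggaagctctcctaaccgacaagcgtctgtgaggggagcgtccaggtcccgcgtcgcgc
The next 2 are the replication genes that passed the test at 4 d, Tk1 (chr11:117825965-117826264, minus strand) and Rrm2 (chr12:24708004-24708303, plus strand), and the last is the helicase gene Mcm6 (chr1:128359656-128359955, minus strand).
Tk1: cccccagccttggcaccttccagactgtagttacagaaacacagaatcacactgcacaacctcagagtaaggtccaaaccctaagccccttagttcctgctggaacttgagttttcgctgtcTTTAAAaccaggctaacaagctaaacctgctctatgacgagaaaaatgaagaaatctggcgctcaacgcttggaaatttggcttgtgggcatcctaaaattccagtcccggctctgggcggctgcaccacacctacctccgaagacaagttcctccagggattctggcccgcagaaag
Rrm2: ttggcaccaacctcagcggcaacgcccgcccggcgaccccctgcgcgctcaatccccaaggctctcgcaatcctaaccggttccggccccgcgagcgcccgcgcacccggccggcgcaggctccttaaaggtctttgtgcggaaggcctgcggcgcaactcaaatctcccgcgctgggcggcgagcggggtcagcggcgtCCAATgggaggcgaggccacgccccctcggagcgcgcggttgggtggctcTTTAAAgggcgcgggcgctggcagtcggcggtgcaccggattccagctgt
Mcm6: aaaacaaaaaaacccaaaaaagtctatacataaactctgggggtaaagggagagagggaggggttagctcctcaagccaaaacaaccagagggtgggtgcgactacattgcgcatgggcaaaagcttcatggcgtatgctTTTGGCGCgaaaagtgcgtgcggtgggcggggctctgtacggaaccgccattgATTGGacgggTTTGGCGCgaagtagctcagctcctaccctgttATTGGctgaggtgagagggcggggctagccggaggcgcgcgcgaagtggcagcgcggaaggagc
Counted so that -1 is the base before the start and +1 the first base after it, the CHR began at -29 in Ube2c, at -71 and -15 in Cdk1, and at -179 and -23 in Top2a. Upstream of it lay 6 CCAAT boxes in Ube2c, a pair of which overlap as CCAATTGG. Tk1 held the variant alone, at -128, Rrm2 held it at +1 with a CCAAT box at -50, and Mcm6 held TTTGGCGC at -110 and at -47.

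Windows were found for 40 of the 47 members, 43 windows in all, since 3 genes had 2 overlapping windows each. TTTGAA was in 23 of the 30 windows of mitosis genes (76.7%), against 1 of the 13 windows of replication genes (7.69%, Mcm2) and 17.9% of all 32851 windows in the table. By gene, 21 of the 28 mitosis genes with a window held it, and in 20 of them a match began within 50 bases of a start. TTTGAA and CCAAT together were in 73.3% of the mitosis windows, against 6.95% of all windows, and CCAAT on its own was in 83.3% and 69.2% of the mitosis and replication windows, against 37.4% of all. The E2F elements were found among replication genes instead. Either was in 0 of the 30 mitosis windows and in 4 of the 13 replication windows (30.8%, Mcm3, Mcm5, Mcm6 and Mcm7), against 1.56% of all. TTTAAA, which reads the same on both strands, was in 23.3% and 30.8% of the mitosis and replication windows, against 13.2% of all. A match is a description of the letters and not a site shown to be bound.

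**Figure D1:**
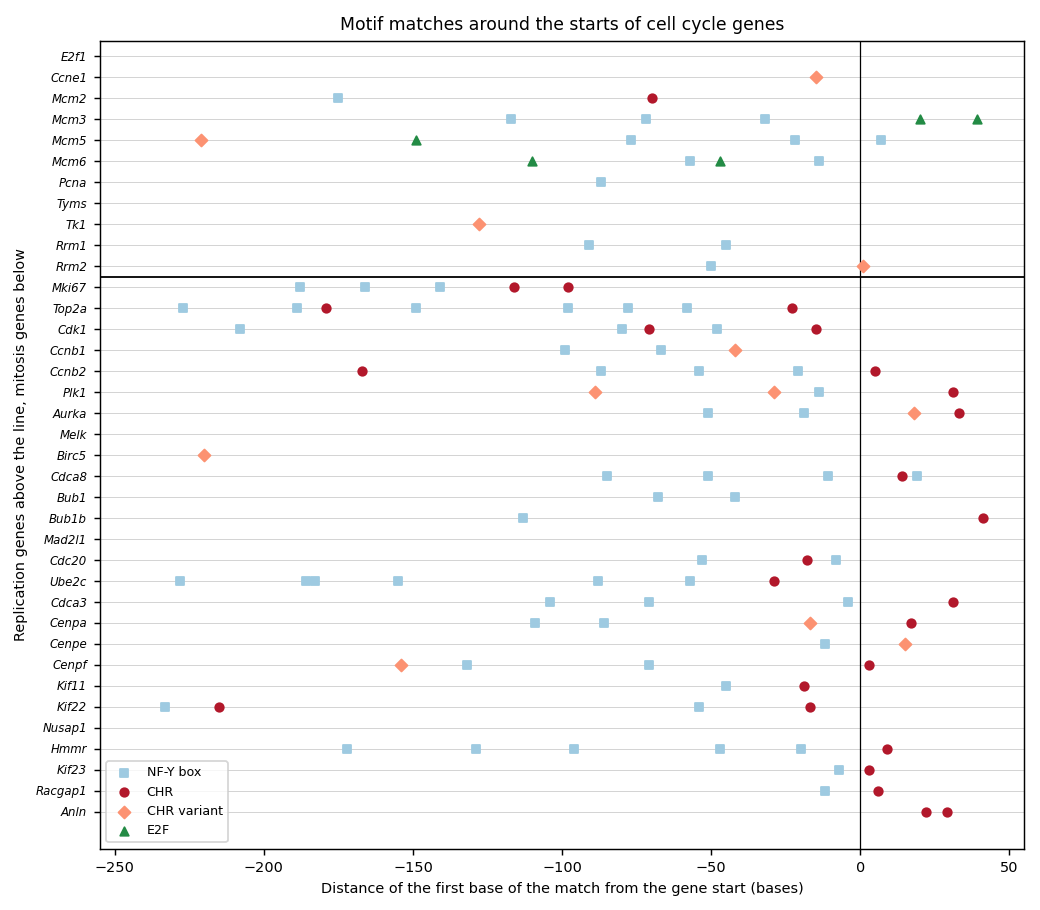
Matches to 4 motifs around the starts of the member genes with 1 window, with the distance of the first base of each match from the start on the x axis (bases) and 1 gene per row, replication genes above the line and mitosis genes below it. CHR matches (circles) gather near the start of mitosis genes, and E2F matches (triangles) appear among the helicase genes alone.

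Among the members, mitosis genes made up most of the rises at 4 d after LPS, and 32 of the 46 members were mitosis genes. At that time 13 of the 46 members were higher than after PBS and 0 were lower, by limma with an adjusted p under 0.05 and a fold of at least 1.5, where 4.21% of all 17097 genes were called higher and 0.205% lower. They comprised 11 of the 32 mitosis genes and 2 of the 14 replication genes, Tk1 and Rrm2. The median log2 difference from PBS was 1.01 over the mitosis genes and 0.23 over the replication genes, beside -0.02 over all genes. Both shrank when each gene was read from its probe set with the lowest mean, to 0.30 and 0.063, and these medians take in 24 mitosis genes with PBS means at or below background. In 27 of the 46 members the 3 LPS 4 d arrays all lay above the 3 PBS arrays, which held for 12.0% of all genes, and in 1 member (Anln) all lay below, which held for 11.8%. At 1 d, 0 members were called higher and 0 lower than after PBS, against 3.86% and 0.532% of all genes. The LPS 1 d arrays all lay above the PBS arrays in 6 members and all below in 4, against 11.5% and 14.0% of all genes. The count at 1 d was also 0 by an ordinary linear model and by limma with an intensity trend, and without adjustment (p under 0.05) it was 5 higher and 2 lower, against 9.4% and 8.43% of all genes. Its medians were -0.08 over the mitosis genes and 0.20 over the replication genes, beside -0.03 over all genes, and the second became 0.0035 on the probe sets with the lowest mean. Both comparisons share the PBS arrays, and since no PBS arrays of 1 d were made, the time since surgery and LPS cannot be told apart at 1 d. In whole tissue, fewer cells of a type and less RNA per cell cannot be told apart either.

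**Figure D2:**
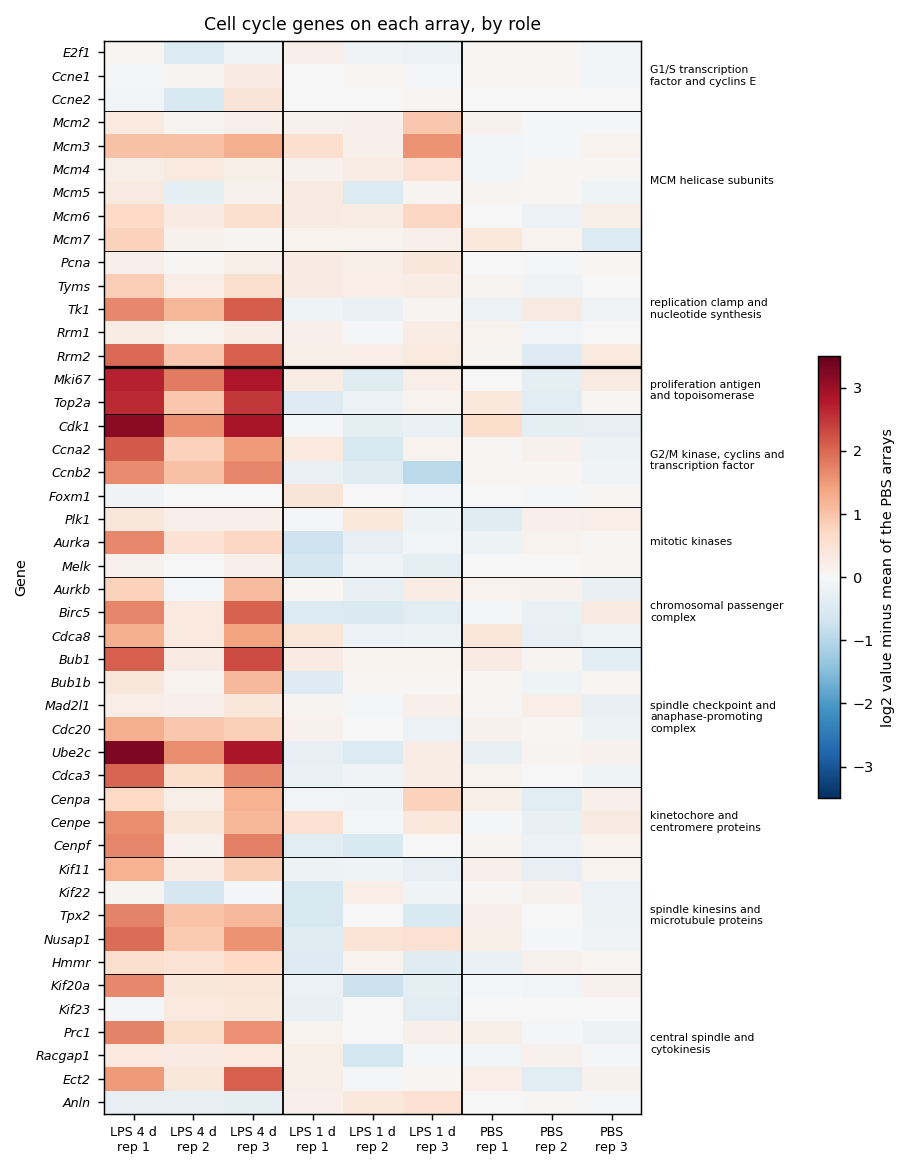
Log2 value minus the mean of the 3 PBS arrays for the 46 members (rows, by role, replication genes above the thick line) on the 9 arrays (columns). Red cells stand in the LPS 4 d columns of the mitosis genes, paler in replicate 2. The helicase genes Mcm3, Mcm4 and Mcm6 are pale red at both times after LPS, whereas Mcm5 is not.

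The count at 4 d moved with single arrays. Leaving out LPS 4 d replicate 2 gave 22 calls, leaving out LPS 4 d replicate 1, LPS 4 d replicate 3 or PBS replicate 2 gave 7, and leaving out PBS replicate 1 or 3 gave 8. Of the 13 called members, 6 had more than 1 probe set (Ccna2, Nusap1, Prc1, Rrm2, Top2a and Tpx2), and 0 of these were called on another. Of the 13, 9 had PBS means at or below a background of 3.49 on the log2 scale, the brightest mean among 23 nonspecific controls. For members whose PBS arrays were all at or below background, the fold is given as a bound, the LPS mean over that background, and no fold is given where both means were below it.

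E2f1, Ccne1 and Ccne2, members that act at the step into S phase, did not pass the test at either time. E2F1 is a transcription factor that drives S phase genes, and E2f1 had log2 levels of 4.95, 4.38 and 4.74 at 4 d, 5.04, 4.74 and 4.68 at 1 d, and 4.92, 4.92 and 4.79 after PBS. The 3 groups overlapped, with a log2 difference of -0.18 ± 0.15 (SE) at 4 d and an adjusted p of 0.597. Ccne1, a cyclin E gene whose product activates CDK2, had 5.13, 5.31 and 5.53 at 4 d, 5.24, 5.29 and 5.14 at 1 d, and 5.24, 5.27 and 5.12 after PBS. These overlapped too, and the 95% interval of its 4 d difference ran between -0.13 and 0.36 on the log2 scale. Ccne2, the other cyclin E gene, differed by -0.06 at 4 d with arrays spread between 3.76 and 4.76.

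The MCM genes encode the 6 subunits of the helicase that opens DNA at the fork. None of the 6 passed the test in any of the 3 comparisons by limma. At an unadjusted p under 0.05, 3 were higher than PBS at 4 d and 3 at 1 d, against 10.6% and 9.4% of all genes. Between the times 0 were. Their median log2 difference from PBS was 0.30 at 4 d and 0.36 at 1 d, which was not tested. Mcm4, the member with the highest mean of the 6, had log2 levels of 6.13, 6.29 and 6.13 at 4 d, 6.09, 6.19 and 6.44 at 1 d, and 5.85, 5.99 and 5.98 after PBS. All LPS arrays of both times stood above all PBS arrays, by 0.25 ± 0.10 at 4 d (adjusted p 0.289) and 0.30 ± 0.10 at 1 d (adjusted p 0.195). Mcm6 had 6.30, 5.87 and 6.15 at 4 d, 5.90, 5.84 and 6.32 at 1 d, and 5.59, 5.40 and 5.79 after PBS. Again both LPS groups lay above PBS without overlap, with log2 differences of 0.51 ± 0.16 (4 d) and 0.43 ± 0.16 (1 d), and neither passed the test. Mcm3 had the widest difference of the 6, 1.11 ± 0.29 at 4 d (adjusted p 0.0843), but its second probe set gave -0.24. The PBS mean of Mcm3, 3.48, was just below background. In some alternatives Mcm3 was called higher at 4 d than after PBS. These were limma with an intensity trend, a fit of only the 2 groups, and leaving out LPS 1 d replicate 2 or 3. Mcm7, Mcm2 and Mcm5 differed from PBS at 4 d by 0.34 ± 0.24, 0.21 ± 0.19 and 0.04 ± 0.22, with arrays that overlapped. Their second probe sets gave -0.02 ± 0.21 (Mcm7), 0.63 ± 0.19 (Mcm2, adjusted p 0.134) and 0.01 ± 0.18 (Mcm5), and none was called.

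Pcna, the sliding clamp that holds DNA polymerase to its template, had log2 levels of 9.41, 9.27 and 9.44 at 4 d, 9.52, 9.44 and 9.62 at 1 d, and 9.20, 9.19 and 9.30 after PBS. The 1 d arrays stood above all PBS arrays and the 4 d arrays overlapped them, with differences of 0.14 ± 0.09 at 4 d (adjusted p 0.453) and 0.30 ± 0.09 at 1 d (adjusted p 0.111). The enzymes that make DNA precursors split. Tk1, thymidine kinase, which salvages thymidine in S phase, had 3.99, 3.48 and 4.44 at 4 d, 2.17, 2.07 and 2.40 at 1 d, and 2.11, 2.64 and 2.19 after PBS. Every 4 d array lay above every other, and the rise over PBS was at least 1.40-fold (adjusted p 0.00418). Rrm2, the regulated small subunit of ribonucleotide reductase, had 5.51, 4.48 and 5.64 at 4 d, 3.74, 3.77 and 3.88 at 1 d, and 3.62, 3.09 and 3.89 after PBS. It rose by 1.68 ± 0.30 at 4 d (adjusted p 0.014), again without overlap. Rrm1, the large subunit of the same enzyme, differed by 0.21 ± 0.11 at 4 d (adjusted p 0.388), and Tyms, thymidylate synthase, by 0.56 ± 0.15 (adjusted p 0.0819), so neither passed.

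Mki67 encodes the Ki-67 antigen of dividing cells, which coats mitotic chromosomes. Its log2 levels were 5.28, 4.40 and 5.41 at 4 d, 2.85, 2.14 and 2.80 at 1 d, and 2.59, 2.23 and 2.90 after PBS. No 1 d or PBS array was above background and all 4 d arrays were, with a rise over PBS of at least 2.91-fold (adjusted p 0.00167). Top2a, the topoisomerase that untangles sister chromatids, had 5.58, 3.93 and 5.45 at 4 d, 2.53, 2.78 and 3.11 at 1 d, and 3.35, 2.57 and 3.02 after PBS. It too was above background at 4 d alone, at least 2.82-fold over PBS (adjusted p 0.0265). The other probe sets of Top2a, which were dimmer, gave log2 differences of 0.18 and -0.07 at 4 d and neither was called.

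Of the kinase and cyclins that start mitosis, 3 of the 4 measured genes rose at 4 d. Cdk1, the kinase that drives entry into mitosis, had log2 levels of 6.64, 5.11 and 6.36 at 4 d, 3.43, 3.13 and 3.24 at 1 d, and 4.10, 3.14 and 3.20 after PBS. The lowest 4 d array stood above the highest PBS array, and the rise was 2.56 ± 0.39 (adjusted p 0.00606). The PBS mean of Cdk1, 3.48, was just below background. Ccnb2, a cyclin B that partners it, had 5.24, 4.61 and 5.30 at 4 d, 3.35, 3.17 and 2.64 at 1 d, and 3.65, 3.65 and 3.46 after PBS. It rose by 1.46 ± 0.22 at 4 d (adjusted p 0.00585), and its 1 d arrays all lay below the PBS arrays, by -0.53 ± 0.22, which did not pass the test (adjusted p 0.28). Those 1 d arrays were all below background and the PBS arrays of Ccnb2 lay close to it. Ccna2, cyclin A2 of S phase and G2, had 6.30, 4.97 and 5.65 at 4 d, 4.49, 3.60 and 4.30 at 1 d, and 4.20, 4.30 and 3.98 after PBS. Its rise was 1.48 ± 0.33 at 4 d (adjusted p 0.0397), with no overlap between the 4 d arrays and the rest. Its other probe set gave 1.43 ± 0.35 (adjusted p 0.0647) and was not called. The mean of Foxm1, a transcription factor of G2 genes, was below background in every group.

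**Figure D3:**
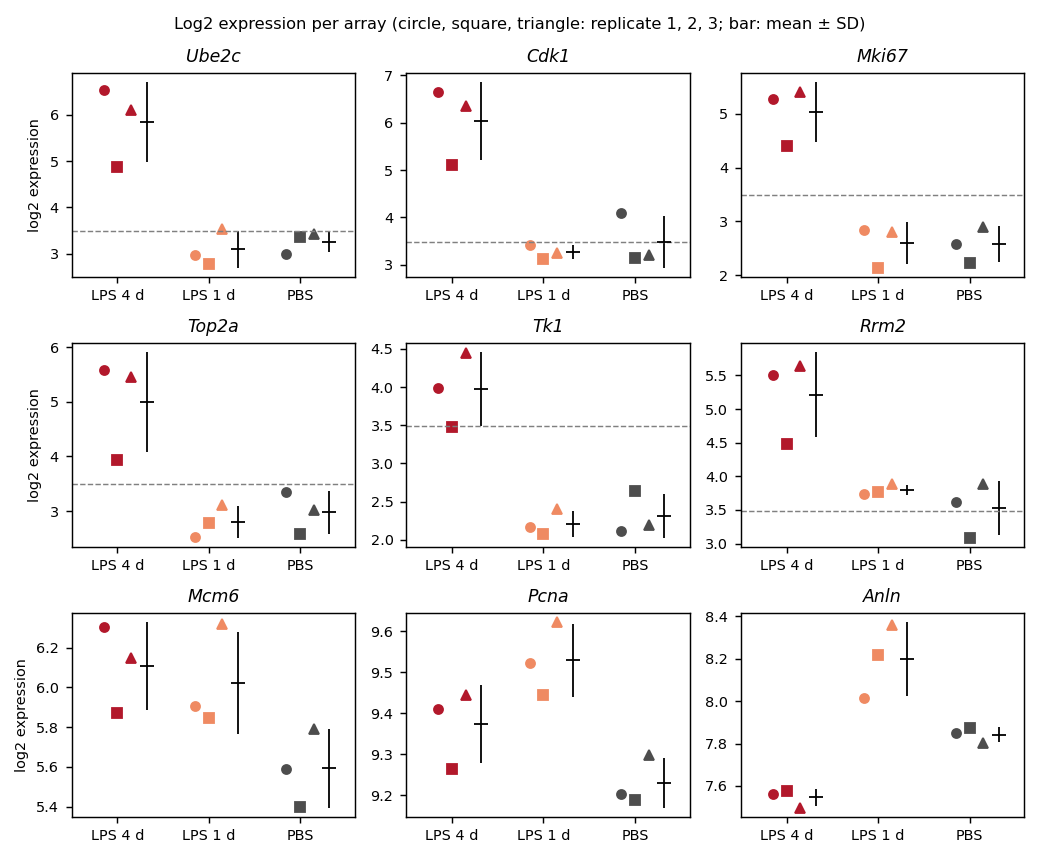
Log2 expression of 9 members on each array, with LPS 4 d at the left, LPS 1 d in the middle and PBS at the right, the symbols marking the 3 replicates and the bar the mean ± SD (n = 3 each). The dashed line is the background of 3.49, drawn where values come near it, and Ube2c, Mki67 and Top2a stand clear of it at 4 d while Pcna and Anln follow other orders.

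The genes of the spindle checkpoint and of the anaphase-promoting complex, the ubiquitin ligase that ends mitosis, held 3 rises among 6. Ube2c, the ubiquitin-conjugating enzyme of that complex, had log2 levels of 6.53, 4.87 and 6.11 at 4 d, 2.97, 2.77 and 3.53 at 1 d, and 3.00, 3.35 and 3.42 after PBS. With all PBS arrays below background, its rise at 4 d was at least 5.08-fold (adjusted p 0.00523). Cdc20, an activator of the complex, had 4.95, 4.62 and 4.52 at 4 d, 3.83, 3.67 and 3.48 at 1 d, and 3.83, 3.72 and 3.51 after PBS. Its rise was 1.01 ± 0.14 (adjusted p 0.00395), and its arrays were close within each group. Cdca3, which takes part in the degradation of a brake on mitotic entry, rose at least 1.94-fold (adjusted p 0.0356), with 5.04, 3.62 and 4.67 at 4 d against 3.13, 3.00 and 2.85 after PBS. Bub1, a checkpoint kinase, was at least 1.07-fold higher without passing the test (adjusted p 0.112). Its 4 d arrays read 4.13, 2.33 and 4.33 and its PBS arrays 2.33, 2.14 and 1.63, so replicate 2 at 4 d was level with the highest PBS array. Mad2l1, a checkpoint protein and the member of this role with the highest mean, had 6.36, 6.30 and 6.55 at 4 d, 6.23, 6.06 and 6.30 at 1 d, and 6.17, 6.37 and 5.88 after PBS. These overlapped, with a difference of 0.27 ± 0.13 at 4 d (adjusted p 0.369). The checkpoint kinase gene Bub1b differed by 0.55 ± 0.24 at 4 d (adjusted p 0.304).

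Of the proteins that build the spindle, 2 of 5 rose at 4 d. Nusap1, which bundles spindle microtubules, had log2 levels of 4.87, 3.82 and 4.49 at 4 d, 2.48, 3.38 and 3.43 at 1 d, and 3.10, 2.83 and 2.78 after PBS. It rose at least 1.87-fold at 4 d (adjusted p 0.0294). Its other probe set, which was dimmer, gave a log2 difference of 0.22 ± 0.19 (adjusted p 0.616) and was not called. Tpx2, which activates Aurora A on the spindle, had 4.85, 4.13 and 4.26 at 4 d, 2.57, 3.09 and 2.58 at 1 d, and 3.30, 3.10 and 2.94 after PBS. Its rise was at least 1.89-fold (adjusted p 0.00871), while its other probe set, slightly dimmer, gave a log2 difference of -0.11 and was not called. Hmmr, a spindle protein and hyaluronan receptor, was at least 1.20-fold higher (adjusted p 0.113) on the probe set used and was called on 1 of its other probe sets, at 0.73 ± 0.14 on the log2 scale (adjusted p 0.0204). The means of the motors Kif11 and Kif22 were below background in every group.

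None of the 3 mitotic kinases, the 3 chromosomal passenger genes and the 3 kinetochore genes passed the test at 4 d, although several sat high on replicates 1 and 3. At an unadjusted p under 0.05, 29 of the 46 members were higher at 4 d and 1 was lower, against 10.6% and 7.07% of all genes. Aurka, the Aurora A kinase of the spindle poles, had 4.70, 3.53 and 3.74 at 4 d, 2.31, 2.74 and 2.93 at 1 d, and 2.84, 3.16 and 3.08 after PBS. All 4 d arrays lay above the PBS arrays, at least 1.41-fold by the means (adjusted p 0.118). Birc5, survivin, a passenger protein that places Aurora B on the centromere, had 5.0, 3.63 and 5.35 at 4 d, 2.82, 2.78 and 2.93 at 1 d, and 3.23, 3.06 and 3.60 after PBS. It differed by 1.37 ± 0.37 at 4 d (adjusted p 0.0933), with replicate 2 barely above the highest PBS array and a PBS mean of 3.30, below background. Cenpa, the histone variant that marks centromeres, had 4.37, 3.89 and 4.90 at 4 d, 3.59, 3.55 and 4.48 at 1 d, and 3.89, 3.28 and 3.86 after PBS. The groups overlapped, and its difference was 0.71 ± 0.32 at 4 d. The kinetochore genes Cenpe and Cenpf were at least 1.16-fold and 1.79-fold higher, and Cdca8 of the passenger complex at least 1.42-fold, none past the test. The other probe sets were not called either, with log2 differences of 0.32 for Cenpe and of -0.09 and 0.54 for Cenpf. The kinases Aurkb, Plk1 and Melk had every group mean below background.

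Of the 6 genes of the central spindle and of cytokinesis, Prc1 alone rose at 4 d. PRC1 bundles the microtubules between the parting chromosomes, and Prc1 had log2 levels of 5.15, 4.02 and 5.0 at 4 d, 3.52, 3.43 and 3.58 at 1 d, and 3.62, 3.37 and 3.24 after PBS. The rise was 1.31 ± 0.26 (adjusted p 0.0234), and no 4 d array overlapped those of the other groups. The PBS mean of Prc1, 3.41, was below background. Its other probe set, which was dimmer, gave 1.08 ± 0.44 (adjusted p 0.265) and was not called. Ect2, an activator of the GTPase that forms the cleavage ring, was at least 1.07-fold higher without passing the test (adjusted p 0.0972), and Racgap1 differed by 0.32 ± 0.18. The kinesins Kif20a and Kif23 had every group mean below background. Anln, the gene of the ring scaffold anillin, moved apart from the rest. It had 7.56, 7.57 and 7.50 at 4 d, 8.02, 8.22 and 8.36 at 1 d, and 7.85, 7.87 and 7.80 after PBS. Its 3 groups did not overlap, with the highest levels at 1 d and the lowest at 4 d, by -0.30 ± 0.10 (adjusted p 0.156) and 0.36 ± 0.10 (adjusted p 0.088) from PBS at 4 d and at 1 d, neither past the test. Anillin is also known in the brain as a protein of myelinating oligodendrocytes.

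**Figure D4:**
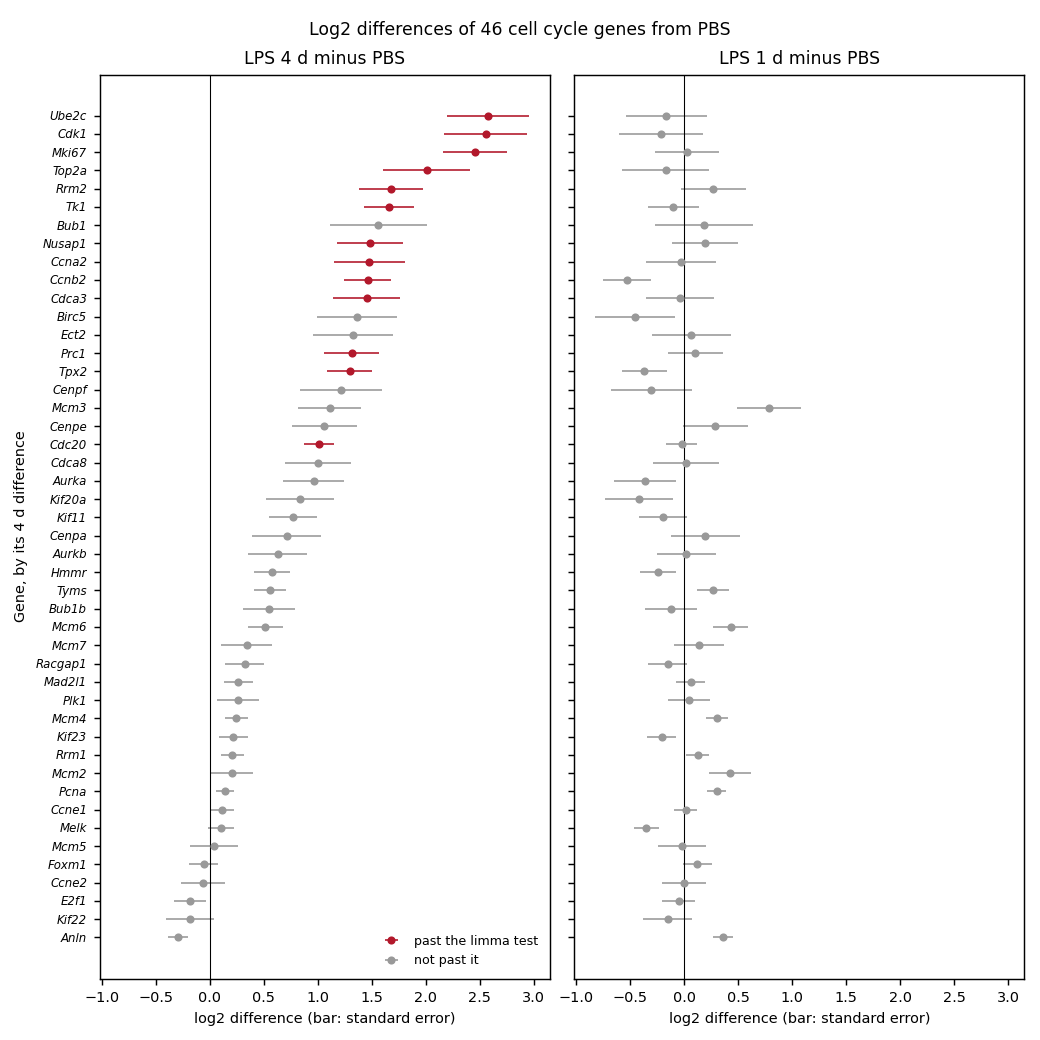
Log2 differences from PBS of the 46 members at 4 d (left) and at 1 d (right), with standard errors as bars and the genes ordered by the 4 d difference. The 13 members past the limma test are red at 4 d, and at 1 d none is.

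Between the times, 15 members were higher and 1 was lower at 4 d than at 1 d, where 1.84% of all genes were called higher and 1.37% lower. The 15 were 13 mitosis genes and 2 replication genes, Tk1 and Rrm2, and the medians were 1.12 over the mitosis genes and 0.09 over the replication genes, beside 0.00 over all genes. In 23 members all 4 d arrays lay above all 1 d arrays, against 11.4% of all genes, and in Anln all lay below them, against 9.76%. Before adjustment (p under 0.05) 27 were higher and 1 lower, against 9.18% and 7.12%. Of the 15, 10 had all their 1 d arrays at or below background, so that a bound is given. Cdk1 was at least 5.84-fold higher at 4 d than at 1 d (adjusted p 0.00584), Ccnb2 at least 2.95-fold (adjusted p 0.0018), Mki67 at least 2.91-fold (adjusted p 0.00304), Top2a at least 2.82-fold (adjusted p 0.0249) and Birc5 at least 2.25-fold (adjusted p 0.0403). For Cdca3, Tpx2, Aurka, Tk1 and Hmmr the bounds lay between 1.20-fold (Hmmr) and 1.94-fold (Cdca3). Ube2c, with 1 of its 1 d arrays above background, was higher by 2.75 ± 0.38 on the log2 scale (adjusted p 0.00565), and Ccna2, Rrm2, Prc1 and Cdc20 were higher by 1.04 for Cdc20 to 1.51 for Ccna2. Of the members called between the times, 7 had more than 1 probe set, and Anln alone was called on another. For Hmmr another probe set gave a log2 difference of -0.10. Anln was lower at 4 d than at 1 d by 0.65 on the log2 scale (-0.65 ± 0.10, adjusted p 0.00762). Leaving out LPS 4 d replicate 2 gave 21 higher. Leaving out replicate 1 or 3 of either LPS group gave 7, LPS 1 d replicate 2 or PBS replicate 3 gave 8, and PBS replicate 1 or 2 gave 9. Anln was not called without LPS 1 d replicate 3.

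Array by array, the 2 classes parted at 4 d, and the arrays of that group differed among themselves. The median log2 difference of the mitosis genes from the PBS mean was 1.57, 0.37 and 1.15 on LPS 4 d replicates 1, 2 and 3, and that of the replication genes was 0.32, 0.13 and 0.29. On the LPS 1 d arrays the mitosis medians lay lower, at -0.13, -0.12 and -0.03, against 0.18, 0.15 and 0.26 for the replication genes. The medians over all genes on these arrays were -0.02, -0.03 and -0.02. Of the 32 mitosis genes, 25 had means at or below background at 1 d and 24 after PBS. Their 1 d medians thus rest mostly on values at background. The mitosis median exceeded the replication median by 1.25, 0.24 and 0.87 at 4 d and differed from it by -0.31, -0.27 and -0.29 at 1 d. All 3 arrays of each LPS group thus ran one way, the 4 d arrays opposite to the 1 d arrays, and these medians were not tested because the members were chosen with results known. On the probe sets with the lowest mean the gaps kept their signs but were smaller, at 0.47, 0.12 and 0.23 at 4 d and -0.13, -0.02 and -0.19 at 1 d. The PBS arrays there gave -0.05, -0.01 and 0.10. The gap of LPS 1 d replicate 2 lay within that range, and that of LPS 4 d replicate 2 lay just above it. Each PBS array is part of the mean it was set against, unlike the LPS arrays, so the PBS range is a narrow measure of spread. LPS 4 d replicate 2 was the lowest of its group in 39 of the 46 members (84.8%), against 33.8% of all genes, and in 28 of the 32 mitosis genes. On it 22 of the 32 mitosis genes stood above every PBS array, against 27 and 28 on replicates 1 and 3. On the LPS 1 d arrays 5, 4 and 7 did. The share over all genes was not counted, and 8 of the 32 had 4 d means at or below background. The median SD within a group was 0.54 at 4 d, 0.29 at 1 d and 0.19 after PBS over the mitosis genes, and 0.12, 0.11 and 0.11 over all genes.

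**Figure D5:**
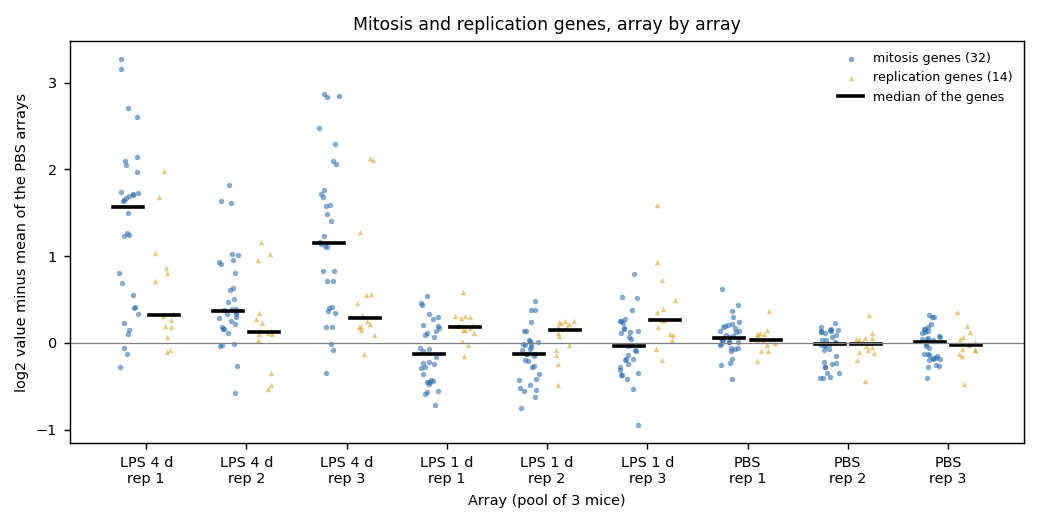
Log2 value minus the PBS mean for the 32 mitosis genes (circles) and 14 replication genes (triangles) on each array, with bars at the medians. At 4 d the mitosis medians of 1.57, 0.37 and 1.15 lie above the replication medians, and at 1 d they lie below them.

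Markers of 10 cell types were read on the same arrays. Summed on the linear scale, 8 microglia markers lay between 1633 and 1862 at 4 d, 478 and 725 at 1 d, and 774 and 807 after PBS. The 9 monocyte and macrophage markers lay between 2045 and 2830 at 4 d, 1306 and 1362 at 1 d, and 297 and 345 after PBS. These 9 did not move together between the times. At 4 d 3 were called higher and 2 lower than at 1 d, against 1.84% and 1.37% of all genes. Their log2 differences ran from -3.09 to 4.36. On replicate 2 of the 4 d arrays the microglia and the monocyte and macrophage sums were 1633 and 2045, against 1823 and 2830 on replicate 1 and 1862 and 2763 on replicate 3. Of the 10 marker lists, 7 had their lowest sum among the 4 d arrays on replicate 2, and by the median log2 difference from PBS 5 were lowest there and 5 on replicate 3, the monocyte and macrophage list among the second 5. The limma test called 4 of 8 microglia markers, 7 of 9 monocyte and macrophage markers, 4 of 8 endothelial and pericyte markers and 2 of 7 astrocyte markers higher at 4 d than after PBS, against 4.21% of all genes. At 1 d it called 6 of the 9 monocyte and macrophage markers higher, against 3.86%, and 3 of the 8 microglia markers lower (P2ry12, P2ry13 and Gpr34), against 0.532%. Also called higher at 1 d were 3 of the 8 endothelial and pericyte and 2 of the 7 astrocyte markers. So were 6 of the 9 neutrophil markers (1 of the 9 at 4 d) and 1 of the 7 neuroblast and progenitor markers (Cd24a). The 9 neutrophil markers lay between 288 and 504 at 4 d, 1583 and 4295 at 1 d, and 97.2 and 181 after PBS. Of the 4 defining genes of neutrophil precursors, which divide, Elane, Mpo and Ctsg were at background in every group, and Prtn3 averaged 3.78 at 4 d, 3.48 at 1 d and 3.65 after PBS on the log2 scale and was not called. Of the T, B and NK cell markers 9 of 10 were at background in every group, and Nkg7 was called higher at 4 d although its mean there was 2.62, below background. The 5 markers of oligodendrocyte precursors summed to 1314 to 1644 at 4 d, 1014 to 1211 at 1 d and 1392 to 1422 after PBS, with Pdgfra at background throughout and Gpr17 called higher at 4 d. The 7 neuroblast and progenitor markers summed to 460 to 548 at 4 d, 618 to 742 at 1 d and 520 to 551 after PBS. At 4 d 0 were called, and before adjustment (p under 0.05) 3 were lower and 0 higher, against 7.07% and 10.6% of all genes. The 8 endothelial and pericyte markers summed to 1062 to 1242 at 4 d, 720 to 796 at 1 d and 752 to 822 after PBS. The 7 astrocyte markers summed to 3232 to 3768 at 4 d, 2753 to 2846 at 1 d and 2108 to 2261 after PBS. The part of these cell types in the result was not tested.

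Other genes of the cycle were listed from general knowledge, with earlier results of these data known. Of 39 further mitosis genes analysed, 6 rose at 4 d (15.4%, against 4.21% of all genes) and 0 fell, with a median log2 difference of 0.40, and 1 was called higher at 1 d (2.56%, against 3.86%), with a median of 0.01. Without LPS 4 d replicate 2 the count at 4 d was 11, without replicate 1 or 3 of that group it was 4, and without single other arrays 5 or 6. The 3 with the largest differences were Pbk, a mitotic kinase, at 2.08 ± 0.36 (adjusted p 0.0118), Ckap2, a spindle protein, at 1.99 ± 0.32 (adjusted p 0.00822), and Cep55, which acts in the final cut between daughter cells, at least 1.67-fold higher (adjusted p 0.00504). Between the times these 3 alone were called higher at 4 d (1.84% of all genes were), and single arrays left out gave 0 to 9. Cks1b, a subunit of cyclin-dependent kinases, was the one called at 1 d, at 0.82 ± 0.17 (adjusted p 0.0341), and the call held only without LPS 4 d replicate 2 or 3 when single arrays were left out. Of 31 further replication genes, 2 were called higher at 4 d (6.45%, against 4.21% of all genes). They were Dbf4, the activator of the CDC7 kinase, at 0.99 ± 0.17 (adjusted p 0.0137) and Cdt1, a licensing factor, at 0.89 ± 0.19 (adjusted p 0.0313). Cdt1 was also the one called at 1 d (3.23%, against 3.86% of all genes), at 0.86 ± 0.19 (adjusted p 0.0366). Between the times 0 of the 31 were called. Before adjustment (p under 0.05) 2 were higher and 1 lower there, against 9.18% and 7.12% of all genes. Leaving out single arrays gave 0 to 3 calls for this list at 4 d (0 without LPS 4 d replicate 1 or 3 or PBS replicate 2) and 0 to 1 at 1 d. Its medians were 0.15 at 4 d and 0.09 at 1 d.

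Genes of G1 and of the brakes on the cycle were also read. Of 10 genes of G1 cyclins, their kinases and E2F or MYC factors, 3 rose at 1 d (30.0%, against 3.86% of all genes) and 0 at 4 d. At an unadjusted p under 0.05, 3 were higher at 4 d, against 10.6% of all genes. The 3 called at 1 d were Myc, a growth factor-induced transcription factor, at 0.92 ± 0.18 (adjusted p 0.021), Ccnd3 at 0.67 ± 0.13 (adjusted p 0.0184) and Ccnd1 at 0.60 ± 0.12 (adjusted p 0.0208), the last 2 being cyclin D genes. Leaving out single arrays gave between 0 and 3 calls for this list at 1 d, and 0 without LPS 1 d replicate 2 or 3 or PBS replicate 2. Of 18 inhibitors, 1 was called higher at 1 d and 2 at 4 d (5.56% and 11.1%, against 3.86% and 4.21% of all genes). Cdkn1a, the p21 inhibitor of cyclin-dependent kinases, rose at 1 d by 1.61 ± 0.11 (adjusted p 4.23e-05) and was lower at 4 d than at 1 d, by -1.04 ± 0.11 (adjusted p 0.00149). Cdkn1c, p57, fell at 1 d (-0.69 ± 0.15, adjusted p 0.0394), a call kept only without PBS replicate 2 when single arrays were left out. At 4 d the 2 called higher than PBS were Rbl1, the pocket protein p107, at 1.07 ± 0.21 (adjusted p 0.0216), and E2f8, a repressor among the E2F factors, at least 1.02-fold higher (adjusted p 0.00762). Between the times E2f8 was at least 1.02-fold higher at 4 d (adjusted p 0.00815), and Cdkn2c, p18, was higher by 0.65 ± 0.14 (adjusted p 0.0436).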

How the data were processed

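RNA from the injected hemisphere was measured on 9 Affymetrix arrays, 3 in each of the groups LPS 4 d, LPS 1 d and PBS, each a pool of 3 mice. The authors labelled the RNA, hybridised it to HT mouse genome arrays and ran RMA in Affymetrix Expression Console (version not given in the sources used here), and the deposited values are log2 expression per probe set after RMA's background correction, quantile normalization and summary. The scanner output was not used here. Array medians lay between 4.32 and 4.37, and arrays correlated at 0.992 to 0.994 within groups and 0.981 to 0.990 between them. The number of arrays limits the precision, and since p-values measure the spread between pools, they do not describe single mice.

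After 104 control entries were left out, all 45037 probe sets were fitted with limma 3.58.1 in R 4.3.3 (lmFit, contrasts.fit and eBayes on the 3 groups, no covariates), and p-values were adjusted by Benjamini-Hochberg over all probe sets. A call needed an adjusted p under 0.05 and a fold of at least 1.5. Gene names came from the platform annotation (28898 probe sets with 1 symbol, 551 with several, 15588 with none), and each gene was read from its probe set with the highest mean. Of the members, 27 had more than 1 probe set. Errors of differences are standard errors of the fit. With 3 arrays a group, exact permutation cannot reach a p under 0.1, so none is given. No column lacked a sample. The fit was tested on simulated data.

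The members and the gene lists were chosen with earlier results of these data known, so no test over the members is given. Values per array are given for the 8 most raised and 3 most lowered members past the test in each comparison, for the member with the highest mean of each role, and for Mki67, Pcna and E2f1. Also given, and chosen after their values were seen, are those of Cdc20, Cdca3, Prc1, Bub1 and Mcm6. For other lists, up to 3 genes past the test with the largest change in each direction are named. Alternatives were moderation, thresholds, choice of probe set, a filter on dim probe sets, scaling, fits of 2 groups, a replicate block and leaving out each array.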

Additional observations from a re-analysis of the deposited data

Results flagged for a closer look

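The differences of LPS 4 d and LPS 1 d from PBS were themselves compared, since both were taken against the same PBS arrays, and 15 members had a larger difference at 4 d than at 1 d by limma, all of them higher at 4 d than at 1 d. The reverse was found for Anln, with a log2 difference between the times of -0.65 ± 0.10 (SE, adjusted p 0.00762), the highest values being on the LPS 1 d arrays. Groups of 3 arrays were not searched for single outlying arrays.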

How the results depend on the processing

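The count of members higher at 4 d than after PBS was 13 and became 22 with an intensity trend and robust moderation, 5 by an ordinary linear model, 7 on the probe set with the lowest mean, and 8 among the 26 members above background in their mean over all arrays, a filter that members can pass through the LPS 4 d arrays. Leaving out single arrays gave 7 to 22. Between the times the count of 15 became 4 by the ordinary linear model, 9 on the probe set with the lowest mean, 9 among members above background and 7 with only the 2 groups fitted, and leaving out single arrays gave 7 to 21. The count of members lower at 4 d than at 1 d, 1, became 0 at a fold of at least 2 and ranged between 0 and 1 without single arrays. Members called at 1 d against PBS numbered 0 under every alternative run. On the probe set with the lowest mean, log2 differences of 9 members changed sign at 4 d against PBS, 13 at 1 d and 8 between the times. Among them were the called Tpx2 (-0.11, against PBS) and Hmmr (-0.10, between the times) and Mcm3 (-0.24 at 4 d), and the others were not called. There the median of the mitosis genes at 4 d became 0.30 and that of the replication genes 0.063 at 4 d and 0.0035 at 1 d. The last became 0.055 on the mean of all probe sets and 0.26 among members above background. Without single arrays the medians ranged between 0.82 and 1.26 (mitosis) and 0.19 and 0.28 (replication) at 4 d, and between -0.14 and -0.00011 (mitosis) and 0.13 and 0.27 (replication) at 1 d. The causes were not tested. Ccnb2, Cdc20 and Ube2c were called at 4 d against PBS under every alternative run, and Ccnb2 and Cdc20 between the times. The replicate numbers did not pair the samples (correlations of same-numbered arrays between -0.035 and 0.022), and with the replicate block the counts were 14 and 12.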
